A study of Mus musculus with 8 samples.

Results

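Sirtuins are enzymes that remove acetyl and other acyl groups from lysines and spend NAD+ in each reaction. The mouse has 7 sirtuin genes, Sirt1 to Sirt7, which were chosen by symbol, and all 7 were found among the 22063 genes of the table and passed the filter on low counts that left 10770 genes for testing. SIRT1, SIRT6 and SIRT7 act mainly in the nucleus, SIRT2 mainly in the cytosol, and SIRT3, SIRT4 and SIRT5 in mitochondria. In the liver the family is known for coupling the NAD+ supply to fat oxidation, glucose production and the stress response. SIRT1 is known to deacetylate LKB1, the kinase upstream of AMPK, which is encoded by Stk11.

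RNA-seq was carried out on 8 libraries labelled WT and Liver. The control group held 4 libraries and the tranilast group held 4, titled Control and Control+tranilast, and tranilast is an anti-allergic drug. By the series design all mice had received an HFHC diet, which is rich in fat and cholesterol, and by the study's methods they were male C57BL/6J mice given vehicle (Na-CMC) or tranilast in Na-CMC by mouth each day in the later part of the feeding. The labels give no age, dose or batch, the sequenced dose was not stated among those the study used, and nothing in the labels says that the libraries came from separate animals, so that the p-values measure the spread between these samples, which may be technical.

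The library totals lay between 14585153 and 15618787 counts in the control group and between 12053036 and 14679386 in the tranilast group, and a gene at 0 could hold up to 3 counts by counting error alone, or 0.192 to 0.249 CPM. CPM expresses a count relative to the size of its library, and all other CPM here also carry the TMM factor of the library, which balances composition between libraries. The labelled tissue did not match its markers. The 9 hepatocyte markers held 0% to 0.000123% of the counts in the control libraries and 0% to 0.000191% in the tranilast libraries. Cps1, Hnf4a, Serpina1a and Tat were at 0 in all 8. The 11 macrophage markers held 0.939% to 0.995% and 0.914% to 0.975%, and none was at 0 in all 8. Of these 11, however, Mertk, Marco and Mrc1 had at most 1, 2 and 3 counts in a library, within the counting error above. Of the 4 Kupffer cell markers, Clec4f, Timd4 and Vsig4 were at 0. The sirtuin values below therefore come from RNA with next to no hepatocyte transcripts. In such bulk samples fewer cells of a type and less RNA per cell cannot be told apart.

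The first question was which sirtuin transcripts differed between the groups. Sirt4, Sirt1, Sirt7 and Sirt2 were higher with tranilast and passed the test, 4 of 7 sirtuins, and none was lower. Over all genes, 57.0% passed the same test (edgeR's quasi-likelihood test with TMM scaling, adjusted p under 0.05 by the Benjamini-Hochberg method), 28.2% being higher and 28.8% lower, so the share of sirtuins that passed was near that of all genes. The median log2 fold change was 0.17 over the sirtuins and 0.01 over all genes tested. For 3 of the 7 the CPM of the groups did not overlap, compared with 49.8% of all genes in either direction and 24.5% with tranilast higher. No sirtuin reached the study's threshold of an absolute log2 fold change of 1.5, which 1.11% of genes reached together with the adjusted p.

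**Figure D1:**
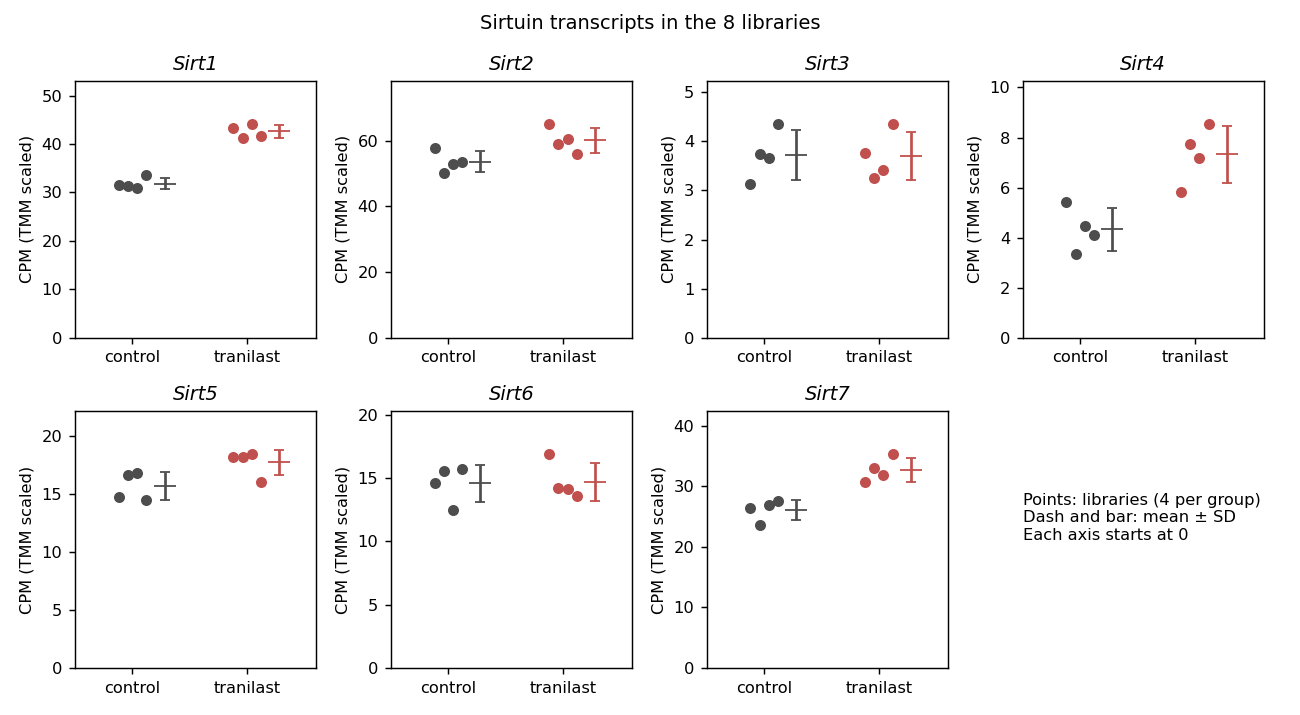
CPM scaled by TMM (y axes from 0) of each sirtuin in the 4 control (grey) and 4 tranilast (red) libraries, with points for libraries and a dash with bar for mean ± SD. The groups are apart for Sirt1, Sirt4 and Sirt7 and overlap for the other 4 genes.

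Among the nuclear sirtuins, Sirt1 encodes the deacetylase of p53, FOXO factors and LKB1. Sirt1 (ENSMUSG00000020063, chr10:63319005-63381704, minus strand, GRCm38) had 31.6, 31.3, 30.8 and 33.5 CPM in control replicates 1 to 4 and 43.4, 41.2, 44.2 and 41.6 CPM in tranilast replicates 1 to 4. Every tranilast library was above every control library. The mean rose from 31.8 ± 1.17 (SD, n = 4) to 42.6 ± 1.41 CPM, which on the log2 scale was 0.42 (SE 0.0547, edgeR adjusted p = 3.34e-06), or 1.34-fold with a 95% interval of 1.24 to 1.45. The exact two-sided permutation p was 0.0286, which is the smallest that 4 libraries against 4 allow. A larger absolute change was found in 22.6% of the genes tested.

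Sirt7 encodes a nucleolar deacetylase that acts on histone H3 and on ribosomal DNA transcription. Sirt7 (ENSMUSG00000025138, chr11:120618372-120625240, minus strand) had 26.4, 23.7, 26.9 and 27.6 CPM in the control libraries and 30.7, 33.0, 31.9 and 35.4 CPM in the tranilast libraries. The groups did not overlap, with a gap from 27.6 to 30.7 CPM. The mean rose from 26.1 ± 1.70 to 32.8 ± 1.96 CPM (SD, n = 4), which on the log2 scale was 0.33 (SE 0.0688, edgeR adjusted p = 0.000543). The annotation places 124 exon bases of Sirt7, 2.4% of them, in exons of Mafg on the same strand, and how the counting shared such reads was not stated.

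Sirt6 encodes a chromatin deacetylase that represses glycolytic and inflammatory genes. Sirt6 (ENSMUSG00000034748, chr10:81621785-81627797, minus strand) had 14.6, 15.6, 12.5 and 15.7 CPM in the control libraries and 16.9, 14.2, 14.1 and 13.6 CPM in the tranilast libraries. The groups overlapped through most of their range. The mean was 14.6 ± 1.48 CPM in control and 14.7 ± 1.49 CPM in tranilast (SD, n = 4), and the log2 difference was 0.01 (SE 0.102, 95% interval -0.20 to 0.23, edgeR adjusted p = 0.932).

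In the cytosol, SIRT2 deacetylates alpha-tubulin, FOXO factors and metabolic enzymes. Sirt2 (ENSMUSG00000015149, chr7:28766735-28788661, plus strand) had 57.9, 50.1, 52.9 and 53.5 CPM in the control libraries and 65.2, 59.1, 60.6 and 56 CPM in the tranilast libraries. Control replicate 1 lay above tranilast replicate 4, so the groups overlapped. The mean rose from 53.6 ± 3.23 to 60.2 ± 3.82 CPM (SD, n = 4), which on the log2 scale was 0.17 (SE 0.0561, edgeR adjusted p = 0.0164), with an exact permutation p of 0.0571. The call was lost without control replicate 2 (0.14, edgeR adjusted p = 0.0546) and without tranilast replicate 1 (0.13, edgeR adjusted p = 0.0658), and with library size alone as the scaling the value was 0.28.

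Of the mitochondrial sirtuins, Sirt4 encodes an ADP-ribosyltransferase and lipoamidase that restrains glutamate dehydrogenase and pyruvate dehydrogenase. Sirt4 (ENSMUSG00000029524, chr5:115478010-115484725, minus strand) had 5.41, 3.33, 4.48 and 4.12 CPM in the control libraries, from 48 to 76 counts, and 5.82, 7.74, 7.19 and 8.55 CPM in the tranilast libraries, from 82 to 131 counts. Control replicate 1 and tranilast replicate 1 were the nearest to each other, and the groups did not overlap. The mean rose from 4.33 ± 0.859 to 7.33 ± 1.15 CPM (SD, n = 4), which on the log2 scale was 0.76 (SE 0.168, edgeR adjusted p = 0.00085), or 1.69-fold with a 95% interval of 1.33 to 2.16. This was the highest fold change of the 7 sirtuins, and 7.45% of all genes tested had a larger absolute change.

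Sirt3 encodes the main mitochondrial protein deacetylase. Sirt3 (ENSMUSG00000025486, chr7:140863666-140882309, minus strand) had 3.13, 3.73, 3.67 and 4.36 CPM in the control libraries and 3.76, 3.25, 3.42 and 4.35 CPM in the tranilast libraries, from as few as 42.9 counts in a library. The groups overlapped almost wholly, the means being 3.72 ± 0.502 and 3.70 ± 0.485 CPM (SD, n = 4). The edgeR 95% interval of the log2 fold change ran from -0.38 to 0.38 (adjusted p = 0.996). The estimate near 0 changed sign with the scaling, to 0.12 with library size alone. On the opposite strand Sirt3 shares 7.0% of its exon bases with Ric8a and 5.7% with Psmd13, and whether the counting used strand was not stated.

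Sirt5 encodes the mitochondrial desuccinylase and demalonylase. Sirt5 (ENSMUSG00000054021, chr13:43365496-43395203, plus strand) had 14.8, 16.7, 16.8 and 14.5 CPM in the control libraries and 18.2, 18.2, 18.5 and 16.1 CPM in the tranilast libraries. Only tranilast replicate 4 lay within the control range. The means were 15.7 ± 1.23 and 17.7 ± 1.10 CPM (SD, n = 4), and the log2 difference was 0.17 (SE 0.0877, 95% interval -0.01 to 0.36, edgeR adjusted p = 0.101). Its log2 fold change rounded to the same value as that of Sirt2, with a larger SE. Sirt5 passed the test under upper-quartile scaling (0.24, edgeR adjusted p = 0.0247) and with library size alone (0.29, edgeR adjusted p = 0.00794).

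**Figure D2:**
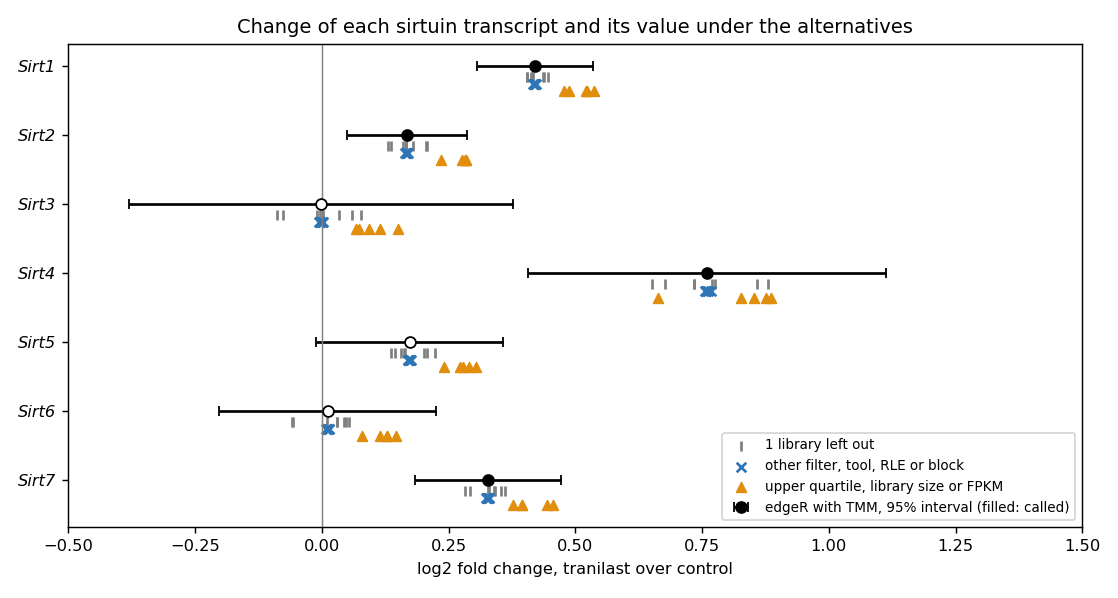
Log2 fold change of each sirtuin, tranilast over control (x axis), with the 95% interval of the edgeR test as a bar and filled points for genes that passed. Grey ticks, blue crosses and orange triangles are values with 1 library left out, with another filter, tool or block, and with upper-quartile, library-size or FPKM scaling, and the last lie to the right of the point for every sirtuin but Sirt4, where 1 of them lies to the left.

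Library size alone, in place of TMM, gave a higher log2 fold change for all 7 sirtuins. TMM factors were 0.956 to 0.965 in the control libraries and 1.037 to 1.045 in the tranilast libraries, and without them the median log2 fold change of all genes moved up by 0.12. Of the genes called, 49.5% were higher with TMM and 70.9% with library size alone. With library size alone 5 of the 7 sirtuins were called, beside 60.4% of all genes. Sirt1, Sirt4 and Sirt7 passed under all 19 alternatives, with log2 fold changes of 0.40 to 0.54, 0.65 to 0.89 and 0.28 to 0.46.

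Ratios of sirtuins within a library do not depend on its scaling, and were taken up after the values above were seen. Of 21 pairs, 2 did not overlap between the groups, Sirt1 over Sirt2 with a log2 change of 0.25 (SE 0.0596) and Sirt1 over Sirt6 with a change of 0.41 (SE 0.0885). Each had an exact permutation p of 0.0286, and the lowest p adjusted over the 21 pairs was 0.133, so no pair passed. Without 1 library the number of pairs apart ranged from 2 to 9. Leaving a library out can only keep or raise this number, because groups that are apart stay apart. With 3 libraries against 4 the smallest exact permutation p is 0.0571. The 9 pairs were those without tranilast replicate 1, 8 were apart without control replicate 1, and 4 without control replicate 3 or without tranilast replicate 4.

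Levels of different genes were compared by FPKM, in which the authors divided the counts by transcript length and depth. In the control libraries Sirt2 was highest with 28.1 ± 1.77 FPKM, followed by Sirt7 with 16.6 ± 1.65, Sirt5 with 9.10 ± 0.695, Sirt1 with 7.91 ± 0.297, Sirt6 with 7.86 ± 0.796, Sirt3 with 3.27 ± 0.373 and Sirt4 with 2.32 ± 0.467 FPKM (SD, n = 4). The ranges of Sirt1 and Sirt6 overlapped, as did those of Sirt5 and Sirt6 and those of Sirt3 and Sirt4. In the tranilast libraries the FPKM were 34.2 ± 2.0 for Sirt2, 21.8 ± 2.22 for Sirt7, 11.4 ± 0.388 for Sirt1, 11.2 ± 0.621 for Sirt5, 8.59 ± 0.811 for Sirt6, 4.25 ± 0.679 for Sirt4 and 3.49 ± 0.367 for Sirt3. Here Sirt1 stood before Sirt5 and Sirt4 before Sirt3, with overlapping ranges in both pairs. The order of Sirt1 and Sirt6 in the control group turned without control replicate 3, and that of Sirt1 and Sirt5 in the tranilast group turned without tranilast replicate 4. The order also depended on the length used. By CPM per kilobase of the longest annotated transcript, Sirt6 (7.71) stood before Sirt1 (7.18) and Sirt5 (6.47) in the control group, and Sirt4 (2.42) before Sirt3 (1.16). Sirt7 (7.98) was still above Sirt6 there, but only slightly. In the tranilast group Sirt6 (7.77) then stood before Sirt5 (7.32).

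**Figure D3:**
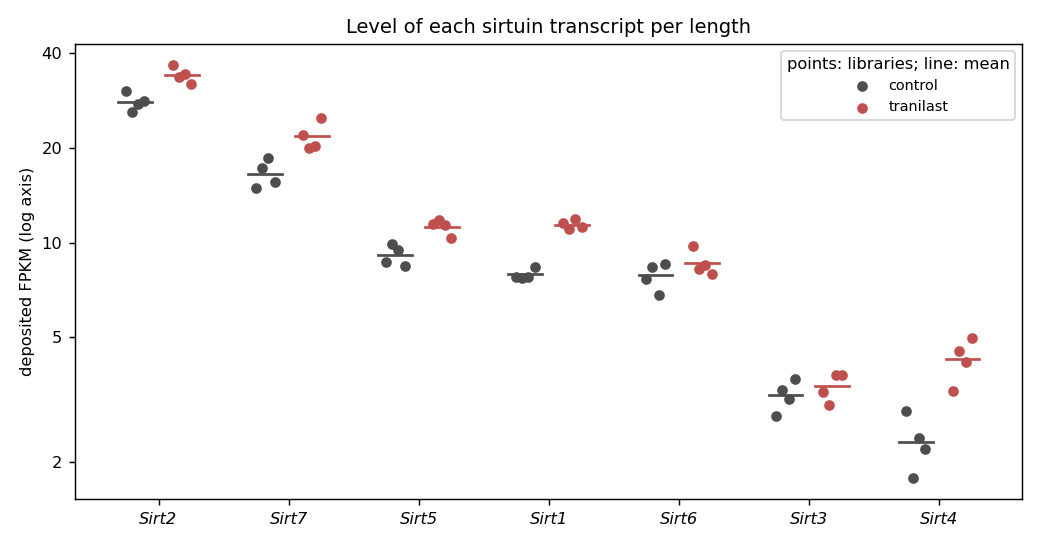
Deposited FPKM of each sirtuin on a log axis, with points for the 4 control (grey) and 4 tranilast (red) libraries and a line at each mean, ordered by the control mean. Sirt2 and Sirt7 lie above the others in both groups and Sirt3 and Sirt4 below.

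The 7 sirtuins summed to 75.1 ± 0.578 FPKM in control and 95.1 ± 2.51 FPKM in tranilast. Of that sum Sirt1 made up 10.5% ± 0.405 in control and 12% ± 0.412 in tranilast, and Sirt2 made up 37.4% ± 2.30 and 36% ± 1.64 (SD, n = 4). The FPKM of 5 sirtuins did not overlap between the groups, Sirt2 and Sirt5 in addition to the 3 above, and 33.4% of all genes were higher without overlap in FPKM. FPKM carries no TMM factor, so that it is shifted like library size.

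Promoter sequences from RefSeq (GRCm38.p6) were found for all 7 genes, as windows of 250 bases before to 50 after a start. The stretches below lie outside annotated exons in the last 100 bases before a start. Each of these stretches also lies inside the annotated span of its gene given above, downstream of the outermost annotated start. Which start was used in these samples was not tested. They are shown for Sirt1 and Sirt4, which had the highest fold changes, and for Sirt6, whose interval spanned 0, at chr10:63339051-63339135, chr5:115484298-115484331 and chr10:81627323-81627422, all on the minus strand. Capitals mark motifs.
Sirt1: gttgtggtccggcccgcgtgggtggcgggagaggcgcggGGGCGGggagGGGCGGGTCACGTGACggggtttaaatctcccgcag
Sirt4: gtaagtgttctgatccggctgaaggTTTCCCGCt
Sirt6: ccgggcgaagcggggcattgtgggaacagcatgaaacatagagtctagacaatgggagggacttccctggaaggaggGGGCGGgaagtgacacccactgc
The Sirt1 stretch holds GC boxes (GGGCGG) and the CLEAR palindrome, the site bound by TFEB and related factors, which is CACGTG with GT before and AC after it. This motif was added to the search after the sequence was seen and contains the CACGTG E-box, next to a GC box. On either strand, GGGCGG is found in 35.7% of 32851 promoter windows and in those of 6 sirtuins, and the CLEAR palindrome in 0.326% and in Sirt1 alone among the sirtuins. The 7 sirtuins have 9 windows between them, as Sirt3 and Sirt6 have more starts than the others. The shares here count windows, whereas the sirtuins are counted by gene. The Sirt4 stretch holds TTTCCCGC, an E2F motif found in 1.07% of windows. CCGGAAG, the core bound by ETS factors, is found in 8.86% of windows and in those of Sirt3, Sirt6 and Sirt7, and CCAAT in 37.4% and in those of Sirt2, Sirt3 and Sirt5. The CRE core TGACGT is found in 7.51% of windows, the FOXO core GTAAACA in 3.65% and the TATA motif TATAAA in 13.6%, and none of these was in a sirtuin window. A match describes the letters only.

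The next question was how the genes that make and use NAD+ differed. Of 12 tested rows of NAD synthesis, of which Nnt takes 2, 2 were higher and 3 lower, with a median log2 fold change of -0.08. That is 41.7% of the tested rows, where 57.0% of all genes passed, 28.2% higher and 28.8% lower. Nampt, the rate-limiting enzyme of NAD+ salvage from nicotinamide, had 257, 292, 269 and 243 CPM in the control libraries and 207, 188, 208 and 181 CPM in the tranilast libraries. All tranilast libraries were lower, and Nampt fell by 0.44 on the log2 scale (SE 0.0517, edgeR adjusted p = 1.04e-06). Nmnat3, a mitochondrial enzyme that joins NMN and ATP to NAD+, rose by 0.80 (edgeR adjusted p = 4.51e-05), and Nadsyn1, the glutamine-dependent NAD+ synthetase, rose by 0.68 (edgeR adjusted p = 0.00123). Kmo, of the kynurenine route, fell by 1.19 (edgeR adjusted p = 0.00937) from a mean of 1.28 CPM. The other 11 rows of this list were too low to be tested, among them Naprt with at most 5 counts in a library and Ido1 and Ido2 at 0.

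Of 16 tested genes of the other NAD+ users 4 were higher and 5 lower, with a median of -0.07. The share called was 56.25%, near the 57.0% of all genes. Parp1, the main poly-ADP-ribose polymerase of the DNA damage response, fell by 0.13 (SE 0.0282, edgeR adjusted p = 0.00099), but by 0.01 with library size alone (edgeR adjusted p = 0.799), so its call depended on the scaling. Cd38, an NAD+ glycohydrolase, was not tested, with 0 counts in the control libraries and at most 2 in a tranilast library. Parp12 and Parp14, which are induced by interferon, fell by 0.75 (edgeR adjusted p = 2.37e-06) and 0.59 (edgeR adjusted p = 0.00425). The groups of Parp14 overlapped. Its call was lost under 3 of 19 alternatives, among them DESeq2 (adjusted p = 0.0509) and log2 FPKM plus 1 (limma adjusted p = 0.0687). Sarm1, the NAD+ hydrolase of axon degeneration, rose by 1.47 from 0.612 CPM (edgeR adjusted p = 0.00558), and Parp3 by 0.65 (edgeR adjusted p = 7.32e-05). Of the 5 that were too low to be tested, Nnmt, which methylates nicotinamide, was at 0.

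Regulators of SIRT1 were measured next, with 5 of 10 higher, 2 lower and a median of 0.12. The share called was 70%, beside 57.0% of all genes. Ccar2 encodes DBC1, which binds and inhibits SIRT1, and had a log2 fold change of 0.05 (SE 0.0531, edgeR adjusted p = 0.46), but passed as higher with library size alone (0.16, edgeR adjusted p = 0.0123). E2f1 and Foxo1, transcription factors known to act on the Sirt1 gene, rose by 0.62 (edgeR adjusted p = 2.52e-09) and 0.55 (edgeR adjusted p = 3.01e-05). Elavl1, whose protein HuR binds Sirt1 mRNA, fell by 0.50 (edgeR adjusted p = 5.18e-10), and Senp1, a SUMO protease that acts on SIRT1, fell by 0.25 (edgeR adjusted p = 7.5e-05), or by 0.13 with library size alone. Ppargc1a and Hic1 were too low to be tested, with at most 1 and 3 counts.

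Genes of known sirtuin substrates passed the test in both directions. Of 21 tested nuclear and cytosolic substrate genes 7 were higher and 9 lower, with a median of -0.01. The share called was 76.2%, beside 57.0% of all genes. Stk11 had 115, 106, 117 and 109 CPM in the control libraries and 81.2, 86.6, 77.1 and 75 CPM in the tranilast libraries. Its groups were far apart, and Stk11 fell by 0.49 (SE 0.0483, edgeR adjusted p = 1.1e-07), while Sirt1 was higher in the same libraries. Acss2, the acetyl-CoA synthetase activated by SIRT1, rose by 0.90 (edgeR adjusted p = 8.37e-08), and Nr1h3, the oxysterol receptor LXR alpha, rose by 0.72 (edgeR adjusted p = 0.0137). Myc fell by 1.62 from 2.33 CPM (edgeR adjusted p = 0.000255). Ppara, Pck1 and Ppargc1a were too low to be tested.

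Of 17 tested mitochondrial substrate genes 7 were higher and 5 lower, with a median of -0.00. The share called was 70.6%, beside 57.0% of all genes. Acadvl, the very-long-chain acyl-CoA dehydrogenase, rose by 0.37 (edgeR adjusted p = 2.59e-06), and Pdha1, of the pyruvate dehydrogenase complex that SIRT4 and SIRT3 act on, rose by 0.36 (edgeR adjusted p = 1.31e-07). Ndufa9, a subunit of complex I, fell by 0.24 (edgeR adjusted p = 0.000144), and Got2, an aminotransferase of the malate-aspartate shuttle, fell by 0.22 (edgeR adjusted p = 3.82e-06), both by 0.10 to 0.12 with library size alone. Cps1 and Otc, hepatocyte enzymes that SIRT3 or SIRT5 modify, were at 0.

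The opposing acetyltransferases were all tested, 3 of 16 being higher and 6 lower with a median of -0.02. The share called was 56.25%, near the 57.0% of all genes. Ep300, the p300 enzyme, fell by 0.36 (edgeR adjusted p = 2.35e-08) and Ncoa3 by 0.25 (edgeR adjusted p = 1.19e-05), the latter by 0.13 with library size alone. Ncoa1, a steroid receptor coactivator, rose by 0.38 (edgeR adjusted p = 1.51e-05), and Kat6b rose by 0.32 (edgeR adjusted p = 0.00106).

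**Figure D4:**
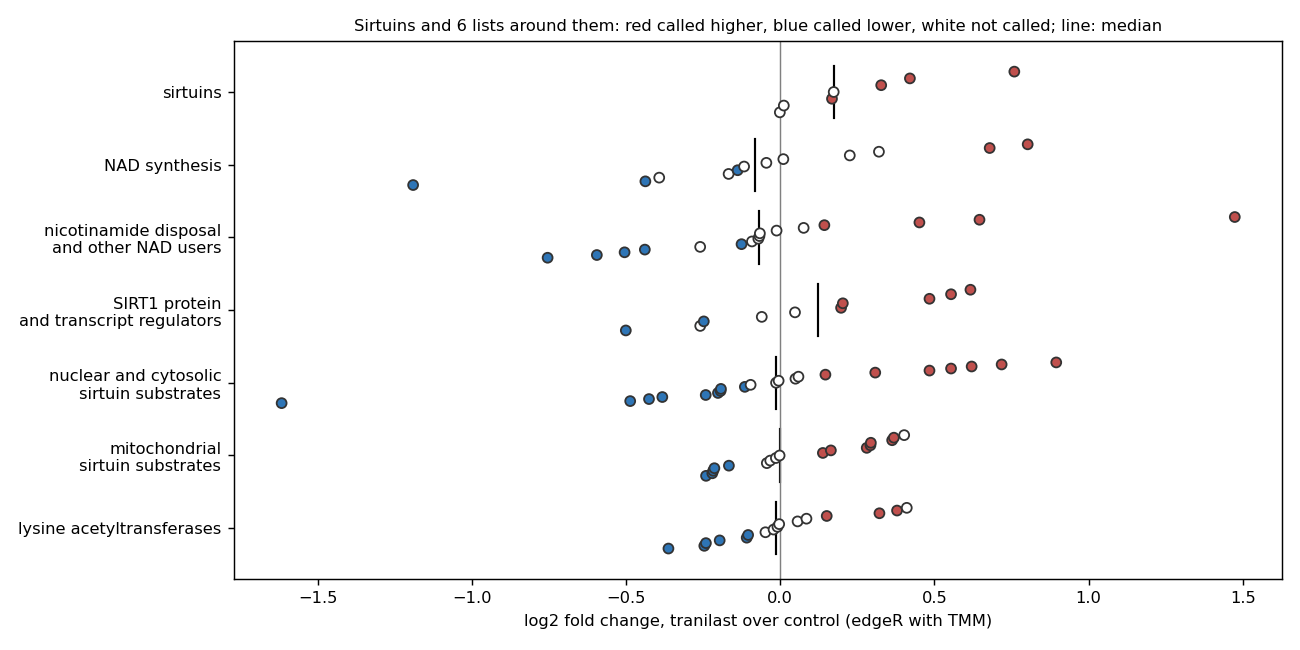
Log2 fold change, tranilast over control (x axis), of each tested gene of the sirtuins and 6 lists around them, with red for genes called higher, blue for lower, white for not called and a line at the median. The sirtuins have 4 of 7 genes called, all higher, beside 57.0% of all genes called, 28.2% higher and 28.8% lower. The other lists, of 10 to 21 tested rows, hold genes called in both directions.

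The genes closest in profile were sought for the called sirtuins with the highest and the lowest fold change, by the distance of their centred log2 CPM over the 8 libraries. For Sirt4 they were Abhd14a (0.379), Map1a (0.416) and Ccdc112 (0.428). For Sirt2 they were Ubl3 (0.0919), Ncoa2 (0.0953) and Pag1 (0.102).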

How the data were processed

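Per the labels, 8 mouse libraries fell into control and tranilast groups of 4. By the study's methods, RNA was extracted with TRIzol and poly-A libraries were sequenced in pairs on a HiSeq X-ten, whereas the labels name a NovaSeq 6000. The aligner, counting tool and build are not given in the sources used here. For each gene the authors deposited estimated counts, and FPKM, for which they divided reads by transcript length and depth. Whole numbers (within 1e-08) made up 87.4% to 89.7% of the counts above 0 in a library, and 92.7% to 93.9% with genes at 0 included, and the rest were rounded. The 30 rows with no symbol stayed in, since each has a gene identifier.

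Genes kept by filterByExpr (10770) were scaled by TMM and entered the quasi-likelihood test of edgeR 4.0.16, with Benjamini-Hochberg adjustment over these genes and no covariate. The study names limma with an absolute log2 fold change of 1.5. Exact permutation tests used log2 CPM with 0.1 added. Alternatives were RLE, upper-quartile and library-size scaling, other filters, DESeq2 1.42.0, limma-voom and limma on log2 FPKM with 1 or 0.1 added (limma 3.58.1, R 4.3.3), the replicate number as a block and each library left out. An alternative combining library size with the loss of tranilast replicate 3 was added after the data were seen. Code was tested on simulated data.

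The members, lists and rules were chosen with earlier results of these data known. All sirtuins were named, Nampt, Parp1, Cd38, Ccar2 and Stk11 in any case, and from each list the 2 highest and 2 lowest fold changes among genes called, with up to 3 names of untested genes. Positions are those of GENCODE M21 on GRCm38, matched by identifier. Raw reads were not analysed here.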

Additional observations from a re-analysis of the deposited data

Results flagged for a closer look

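In 66 groups of 4 libraries, 1 library stood apart from the other three by Dixon's criterion in 6, where chance flags about 1 in 20. Among the sirtuins this was Sirt5 in tranilast replicate 4, with a log2 CPM of 4.02 against 4.19 to 4.21 in the others of its group. Of the genes around them, Nadsyn1 had 3.02 in control replicate 4 against 2.35 to 2.45, and Kmo had 0.28 in the same library against 0.51 to 0.54. Sarm1 had 0.33 in tranilast replicate 2 against 0.95 to 1.01. Nr1h3 had 1.52 in control replicate 1 against 0.70 to 0.77, and Ndufa9 had 6.41 in control replicate 2 against 6.29 in the others.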

How the results depend on the processing

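Sirt1, Sirt4 and Sirt7 kept their direction and call under all 19 alternatives. Sirt2 ranged from 0.13 to 0.21 with 1 library left out and lost its call without control replicate 2 or tranilast replicate 1. Sirt3 turned positive at 0.0664 (upper quartile), 0.115 (library size), 0.000994 (at least 10 counts), 0.00318 (limma-voom), 0.0743 and 0.0938 (FPKM plus 1 and 0.1) and 0.15 (library size without tranilast replicate 3, an alternative added after the data were seen), and ranged from -0.0894 to 0.0771 with 1 library left out. Sirt6 ranged from -0.0598 to 0.0544 with 1 library left out. Sirt5 passed at 0.24 (upper quartile), 0.29 (library size), 0.28 and 0.30 (FPKM plus 1 and 0.1) and 0.27 (library size without tranilast replicate 3). Genes past both thresholds numbered 120, but 322 without a filter, 66 with at least 10 counts, 32 with FPKM plus 1 and 1252 at a fold change of 1.5. Of the 16 tested NAD+ users 9 were called, beside 57.0% of all genes. With FPKM plus 1 or 0.1 the number was 5, beside 52.2% of all genes. The share of called genes that were higher was 62.6% with upper quartile and 70.5% with FPKM plus 1. Kmo, Sarm1 and Myc, all low, had log2 fold changes of -0.27, 0.33 and -0.54 on FPKM plus 1, where the pseudocount shrinks low genes, and Ndufa9 lost its call in the added alternative. The cause of the other changes was not tested.

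With the replicate block 6009 genes and 4 sirtuins were called, against 6143 and 4 without it. Same-numbered libraries did not deviate together (correlations from -0.06 to 0.10, and no library matched its own number best), and the block changed no sirtuin call. The widest intervals among the sirtuins were those of Sirt3 and Sirt4, which also had the fewest counts.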

Other observations

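The length by which each sirtuin's FPKM was divided can be read from its count, FPKM and library total. For Sirt4 it was 1794 bases in every library, the length of its longest annotated transcript, whereas for Sirt7 it ranged from 1312 to 1717 bases between libraries and for Sirt3 from 939 to 1197 bases.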
